A study of Homo sapiens with 6 samples.

Results

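Among the genes deposited for HT-29 cells with and without OGT depletion, 169 expressed intergenic long noncoding RNAs were examined. They were chosen from the 5681 genes of the table by 3 criteria: a lincRNA biotype, a symbol that does not end in -AS and a digit, and a normalized count averaging 20 or more over the 6 libraries. Of 412 genes with the lincRNA biotype, 17 were dropped by name, and 226 of the remaining 395 lay under the expression threshold. Intergenic here refers to the biotype, and 26 of the members overlap the body of a protein-coding gene in the annotation. The members divide into 78 with a gene symbol and 91 known only by the name of a genomic clone. HT-29 is an epithelial colorectal adenocarcinoma line. The 3 Scramble libraries came from cells labelled as genotype WT and infected with a control hairpin, and the 3 shOGT libraries from cells of the same line carrying a hairpin against OGT. OGT encodes the enzyme that attaches O-linked N-acetylglucosamine to nuclear and cytoplasmic proteins. The study's methods describe lentiviral infection of HT-29 cells, the labels do not say which hairpin sequence was used, and nothing in them says whether the 3 libraries of a group came from separate cultures, so p-values measure only the spread between these libraries.

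Long noncoding RNAs are transcripts without a long open reading frame, many of them spliced and polyadenylated like mRNAs. Some act in the nucleus as scaffolds or at their own locus, some are processed into microRNAs or small nucleolar RNAs, and some arise from the same promoter region as a protein-coding neighbour on the other strand. The members are therefore described by these roles: nuclear scaffolds, small RNA hosts, transcripts paired with a neighbour, and those with a name but no settled role.

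In normalized counts, OGT itself was measured at 9628, 11638 and 11619 in Scramble cells against 484, 621 and 537 in shOGT cells, so that the shOGT mean was 4.99% of the Scramble mean. Reads assigned to these genes numbered 4145921 to 4504303 in the Scramble libraries and 3302558 to 3471647 in the shOGT libraries. Values are normalized counts, that is, reads divided by a size factor of the library and not by gene length, and 1 read was worth 0.887 to 0.920 units in the Scramble libraries and 1.05 to 1.14 in the shOGT libraries. The authors restricted the table to genes that differed between the groups by at least 2-fold with a small adjusted p-value. As a result, 99.4% of the 5671 genes tested here passed the call used below (absolute log2 fold change over 1 with a Benjamini-Hochberg adjusted p under 0.05 in limma's trend method), 52.2% in the upward and 47.2% in the downward direction. A call on a single member is thus no independent evidence of a change, and direction, size and level carry the description. In bulk RNA, fewer cells of a type and less RNA per cell cannot be told apart. Of the defining epithelial markers looked for, 5 of 14 were in the table, with a summed normalized count of 9087 to 10955 in the Scramble and 18624 to 20582 in the shOGT libraries. Of these, KRT20, KRT19 and CEACAM6 were called higher and LGALS4 and VIL1 lower. None of 6 fibroblast markers was in the table, which holds only changed genes, so absence does not show a lack of expression. LYZ and CD14 of 6 leukocyte markers summed to 7930 to 8631 in the Scramble and 15673 to 17421 in the shOGT libraries. Most of that sum was LYZ, at 7918 to 8617 and 15653 to 17397. PECAM1 of 4 endothelial markers lay at 42.3 to 51.4 and 129 to 199.99 normalized counts. All libraries came from the HT-29 line. The part of these markers in the results was not tested.

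Most of the long noncoding RNAs were higher after OGT depletion. Of the 169 members, 118 were called higher in shOGT, 48 were called lower and 3 passed the adjusted p but not the fold threshold (AL135925.1, AC068580.2 and AL117329.1). The higher members were 71.1% of those called. The median log2 fold change of the members was 1.398, against 1.05 over all tested genes and -1.10 over the 4244 tested genes that met the same expression threshold. No member had overlapping values between the 3 Scramble and the 3 shOGT libraries, which also held for 99.5% of all tested genes. A log2 fold change beyond 2 in either direction was found for 46 higher and 11 lower of the 169 members. The counts were 1349 higher and 729 lower of all 5671 tested genes. Of the 4244 tested genes above the expression threshold, they were 434 higher and 538 lower.

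Among protein-coding genes above the same expression threshold, lower calls outnumbered higher ones. The classes were not matched for level, since the median mean normalized count was 372 for these protein-coding genes and 50.9 for the members. Of protein-coding genes with a mean of at least 20, 1324 were called higher and 2202 lower, so that 37.5% of called genes were higher. Antisense transcripts, with 154 higher and 49 lower (75.9% higher), and pseudogenes, with 107 higher and 64 lower (62.6% higher), lay nearer to the long noncoding members. These shares were not tested against each other. The split depends on the scaling of the libraries. With a second scaling, the median of ratios taken across the table's own genes, the log2 fold changes of all tested genes moved up by a median of 0.71, and 120 members were called higher and only 14 lower (89.6% higher). Under that scaling the order of the classes stayed, with 91.2% for antisense transcripts, 87.2% for pseudogenes and 62.7% for protein-coding genes. The second scaling assumes that most genes do not change, which a table restricted to changed genes does not meet. A call kept or lost under it, here and below, shows dependence on scaling only. No member changed its sign under any of the 14 alternative settings. All members had passed the authors' restriction to changes of at least 2-fold, so this was likely beforehand and is little evidence of stability.

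**Figure D1:**
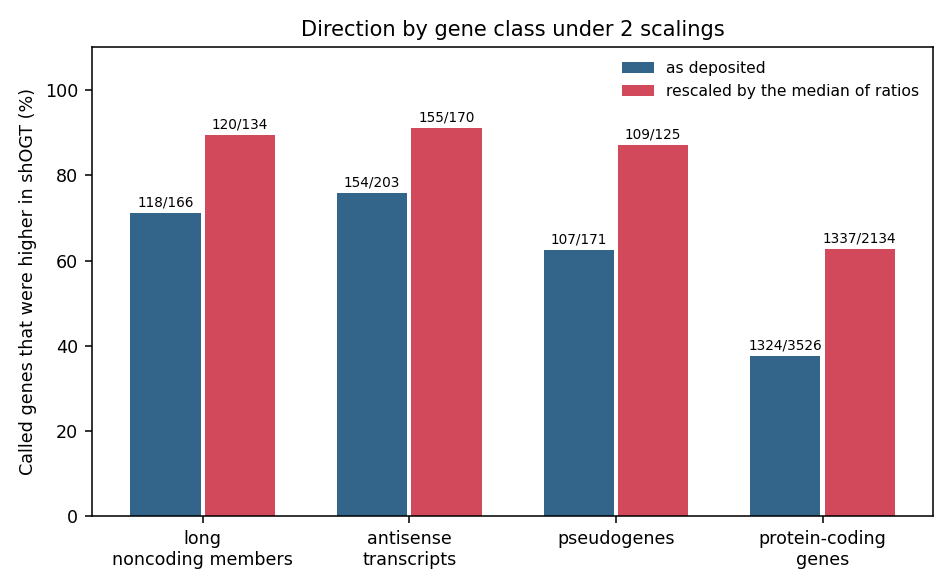
Share of called genes that were higher in shOGT (vertical axis, percent) in 4 gene classes above the expression threshold, as deposited and with the median-of-ratios scaling; the fraction above each bar gives higher over called genes. The long noncoding members stand at 71.1% as deposited and 89.6% rescaled, against 37.5% and 62.7% for protein-coding genes.

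Split by name or structure, higher members outnumbered lower ones in each of the following subdivisions other than that by chromosome. Of the clone-named members, 67 were higher and 21 lower, and of those with a symbol 51 were higher and 27 lower. The 41 members with a LINC symbol split into 25 higher and 16 lower. Members with a single exon block (46 higher and 15 lower of 62) and with several (72 higher and 33 lower of 107) gave similar shares. The 122 members that share no exon base with another gene were divided into 85 higher and 35 lower, and the 47 that share some into 33 higher and 13 lower. By chromosome, all 10 members on chromosome 7, all 4 on each of chromosomes 5, 15 and X, and all 2 on chromosome 18 were called higher. In contrast, 4 of the 5 on chromosome 9 and 7 of the 13 on chromosome 12 were called lower. These chromosomes were named for their uneven splits, and most hold few members. Over all chromosomes, 118 members were called higher and 48 lower, against 2959 higher and 2677 lower of all 5671 tested genes. Shares of all tested genes by chromosome were not counted. None of these subdivisions was tested.

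The members were mostly short and weakly expressed. Exon length ran from 332 to 28487 bases with a median of 2276, and 62 members had 1 exon block. The mean normalized count had a median of 50.9 and reached 4211 at NEAT1. The replicate spread was above the median of the whole table: the median coefficient of variation of the members was 18.9% in the Scramble and 17.7% in the shOGT libraries, against 12.8% and 15.7% over all tested genes. At the edge of the expression threshold, LINC01342 (mean 20.02; 31.9, 35.1 and 27.6 under Scramble against 6.32, 3.21 and 15.9 under shOGT) and LINC00240 (mean 20.17; 15.96, 7.21 and 4.60 in Scramble cells against 34.7, 28.9 and 29.6 in shOGT cells) were the last members inside. Just outside were LINC02057 (mean 19.90; 0.887, 0.901 and 0 under Scramble against 34.7, 39.6 and 43.3 under shOGT) and LINC00942 (mean 19.78; 2.66, 12.6 and 10.1 in Scramble cells against 31.6, 32.1 and 29.6 in shOGT cells). Of the candidates under the threshold, 225 could be tested, with 198 higher and 27 lower.

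**Figure D2:**
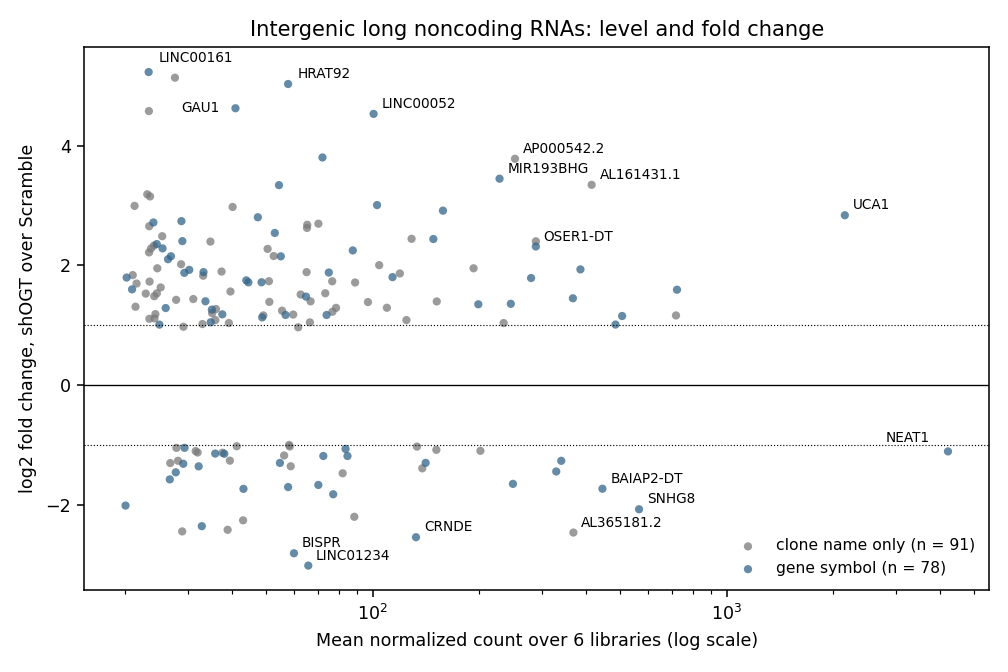
Log2 fold change of each of the 169 members (vertical axis, shOGT over Scramble) against its mean normalized count over 6 libraries (horizontal axis, log scale), with clone-named members in grey and members with a symbol in blue; dotted lines mark a log2 fold change of 1 and -1. The 118 members called higher extend to a log2 fold change of 5.23, the 48 called lower only to -3.01, and UCA1 (2.84) and NEAT1 (-1.11) stand apart by level.

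NEAT1, the scaffold RNA of nuclear paraspeckles, was the most abundant member and fell (chromosome 11, 65422774 to 65445540, plus strand, 1 exon block of 22767 bases; positions here are on GRCh38). It was measured at 5548, 6055 and 5642 under Scramble against 2724, 2851 and 2449 under shOGT. The shOGT mean was 46.5% of the Scramble mean (log2 fold change -1.11, SE 0.09, limma adjusted p = 2.26e-08). Every shOGT value lay below every Scramble value, although with the second scaling the log2 fold change was -0.39 and the fold threshold was missed. Of the 29 paraspeckle proteins looked for, 6 were in the table. HNRNPA1, TAF15, HNRNPF and ZC3H6 were called lower, with shOGT means at 35.997%, 41.2%, 39.7% and 28.0% of Scramble, and of these ZC3H6 alone kept its call with the second scaling. FAM98A was called higher at 275% of Scramble, and FIGN was listed at 0 in the Scramble libraries and at 4.21, 4.28 and 3.41 in the shOGT libraries. Among protein-coding genes with a mean of at least 20, 2202 were called lower and 1324 higher. Mostly lower calls are therefore not particular to this list. FIRRE, another nuclear scaffold RNA and not a member because of its biotype, was likewise called lower, at 22.7% of its Scramble mean.

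UCA1 (urothelial cancer associated 1), described in bladder and colorectal carcinoma, was the second most abundant member and the one with the largest gain in normalized counts. UCA1 lies on chromosome 19 (15828206 to 15836326, plus strand) and had 566, 452 and 574 in Scramble cells against 3719.7, 3814 and 3795 in shOGT cells. The 3 shOGT libraries lay close together, far above all Scramble libraries. Its shOGT mean was 711% of the Scramble mean (log2 fold change 2.84, SE 0.10, limma adjusted p = 2.13e-11). Per kilobase of all annotated exons, where levels of different genes can be roughly compared, the mean of UCA1 was 127.8 in Scramble and 909 in shOGT. The order of the members by mean normalized count per kilobase was SNHG8 (612), UCA1 (519), LINC00973 (401), the clone-named AC007785.1 (388), AL390719.2 (204) and NEAT1 (185.0). NEAT1 was thus the sixth and not the first once all 22767 of its annotated exon bases were divided out. It has 8 annotated transcripts, which these counts do not separate, so its rank could differ if most reads came from shorter ones. Of UCA1's exon bases 13.6% are shared with exons of other genes, mainly LINC01764 on the opposite strand, and the counting is not stated to use strand.

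Among the remaining abundant members, LINC00941 (chromosome 12) was measured at 284, 407 and 394 under Scramble against 984, 1221 and 1047 under shOGT, a shOGT mean 3.00 times that of Scramble (log2 fold change 1.59, SE 0.14, limma adjusted p = 6.50e-08). LINC00346 on chromosome 13 was measured at 333, 297 and 306 in Scramble cells against 799.9, 633 and 666 in shOGT cells and had a log2 fold change of 1.15 (SE 0.12). LINC00973 on chromosome 3, which is under 1 kb long in its exons, had 121, 201 and 163 under Scramble against 521, 628 and 682 under shOGT, with a log2 fold change of 1.93 (SE 0.17). All 3 were higher in every shOGT library than in any Scramble library. The clone-named AC083843.2 had 357, 457 and 508 in Scramble cells against 746, 1104 and 1137 in shOGT cells and a log2 fold change of 1.16 (SE 0.16). FTX, a long RNA of the X-inactivation centre, had 269.6, 373 and 319 under Scramble against 579, 781 and 586 under shOGT and a log2 fold change of 1.01 (SE 0.15). Part of the FTX sequence is shared with other genes. Of its exon bases, 44.3% are shared with exons of other genes, 40.2% of its 75-base stretches recur in other annotated genes such as JPX, and the fold threshold was missed without Scramble replicate 1 (0.89) and without shOGT replicate 5 (0.87). BAIAP2-DT, a divergent transcript whose start lies 241 bases from that of BAIAP2, had 843, 576 and 631 in Scramble cells against 263, 164 and 193 in shOGT cells and fell to 30.3% of the Scramble mean (log2 fold change -1.73, SE 0.18, limma adjusted p = 3.43e-07).

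**Figure D3:**
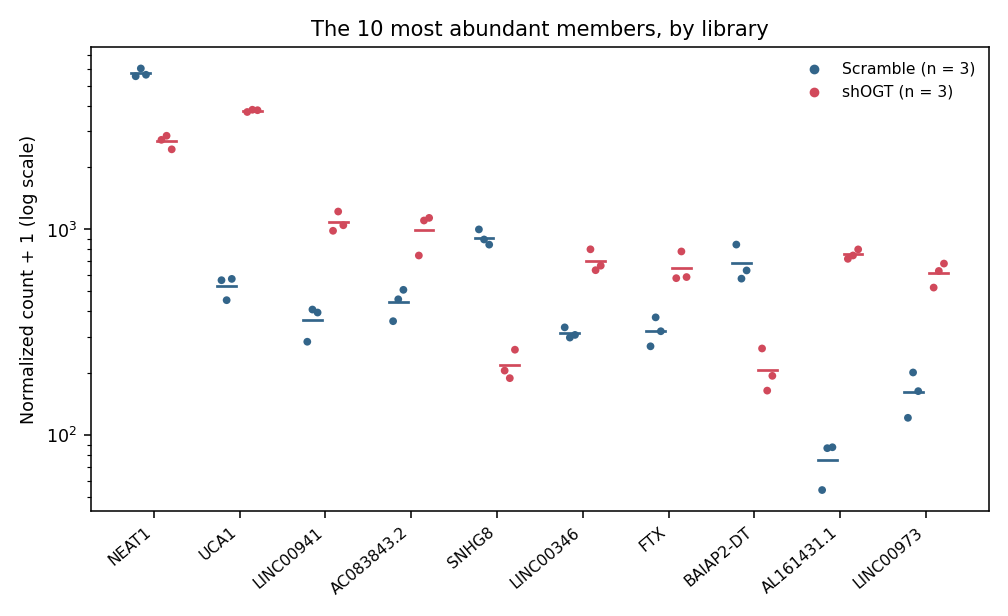
Normalized count plus 1 in each library (vertical axis, log scale) of the 10 members with the highest mean, with points for the 3 Scramble (blue) and 3 shOGT (red) libraries and a line at each group mean. NEAT1, SNHG8 and BAIAP2-DT lie lower in shOGT, the other 7 lie higher, and no gene has overlapping groups.

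SNHG8, a small nucleolar RNA host gene on chromosome 4 (118278709 to 118279823, plus strand), was the most abundant member per kilobase of annotated exons in the Scramble libraries and fell. It hosts SNORA24, a box H/ACA RNA that guides pseudouridylation, inside its annotated exons, which makes 14.2% of its exon bases shared. SNHG8 had 999.6, 893 and 843 under Scramble against 205, 189 and 259.5 under shOGT. The shOGT mean was 23.9% of Scramble (log2 fold change -2.07, SE 0.13, limma adjusted p = 3.05e-09), and the gene was also called lower after rescaling. Host genes of small nucleolar RNAs as a list of 36 symbols had 10 genes in the table, all 10 called lower, with a median log2 fold change of -1.38 against 1.05 over all tested genes and -1.10 over those above the expression threshold. With the second scaling all 10 stayed below 0, with a median of -0.66, but only SNHG8, GAS5 and SNHG7 passed the call. Of the list only SNHG8 is a member, since GAS5, SNHG1, SNHG3, SNHG5, SNHG7, SNHG11, SNHG12, SNHG16 and ZFAS1 carry other biotypes. Their shOGT means ran from 26.8% of Scramble for GAS5 to 47.5% for SNHG1.

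Most members that host a microRNA were higher. In the annotation, 14 members contain 20 microRNA genes on their own strand, and 12 of these members were called higher and 2 lower, with a median log2 fold change of 1.75. The 85.7% higher among these calls compares with 71.1% over all called members, and with the second scaling 92.3% compares with 89.6%. The difference was not tested. None of the 20 microRNA genes was itself in the table, and poly(A)-selected libraries of this kind do not measure mature microRNAs. The mature sequences of the microRNAs named below are shown for orientation, from RefSeq with positions on GRCh38.p14, 5′ to 3′, with the seed (bases 2 to 8) that pairs with targets in capitals. The first 3 share the seed AGCACCA.
hsa-miR-29a-3p: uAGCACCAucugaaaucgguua
hsa-miR-29b-3p: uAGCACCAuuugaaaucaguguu
hsa-miR-29c-3p: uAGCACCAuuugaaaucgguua
hsa-miR-34a-5p: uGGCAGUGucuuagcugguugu
hsa-miR-193b-3p: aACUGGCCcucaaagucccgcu
hsa-miR-365a-3p: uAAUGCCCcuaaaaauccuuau
hsa-miR-22-3p: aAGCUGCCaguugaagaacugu
hsa-miR-146a-5p: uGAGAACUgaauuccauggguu
hsa-miR-503-5p: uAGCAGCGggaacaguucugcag
hsa-miR-210-3p: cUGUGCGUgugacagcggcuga

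MIR34AHG, the host of miR-34a and a known p53 target, was measured at 39.02, 36.04 and 33.1 in Scramble cells against 301, 303 and 234 in shOGT cells. Its shOGT mean was 775% of the Scramble mean (log2 fold change 2.91, SE 0.19, limma adjusted p = 4.35e-09), and the groups were far apart in all libraries. MIR193BHG, which holds the genes of miR-193b and miR-365a in introns, rose the most of the hosts, with 39.9, 40.6 and 32.2 under Scramble against 387, 407 and 461 under shOGT and a ratio of means of 11.1 (log2 fold change 3.45, SE 0.17, limma adjusted p = 3.99e-10). MIR22HG, host of miR-22, had 178, 201 and 209.8 in Scramble cells against 588, 507 and 520.2 in shOGT cells and a log2 fold change of 1.45 (SE 0.12).

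The miR-29 family is encoded at 2 loci, and the host transcripts of both were higher. MIR29B2CHG on chromosome 1, which contains the miR-29c and miR-29b-2 genes, had 45.2, 58.6 and 46.9 under Scramble against 177, 191 and 164 under shOGT and a log2 fold change of 1.80 (SE 0.20). At the chromosome 7 locus, AC016831.6 spans the miR-29a and miR-29b-1 genes and had 13.3, 30.6 and 12.9 in Scramble cells against 89.5, 154 and 121 in shOGT cells, with a log2 fold change of 2.70 (SE 0.35). LINC-PINT, a p53-induced transcript of the same locus, is listed under 2 gene identifiers, of which the 1 with the lincRNA biotype had 15.96, 16.2 and 11.96 under Scramble against 78.9, 80.3 and 114 under shOGT (log2 fold change 2.54, SE 0.29). AC016831.6 and LINC-PINT overlap on the same strand. Of the exon bases of AC016831.6, 35.8% are shared with the genes named LINC-PINT, and 31.6% of those of the lincRNA entry of LINC-PINT are shared with genes on its strand, so their reads may be counted for either.

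The other hosts described here were mostly higher as well. CYTOR was measured at 109, 125 and 100.3 in Scramble cells against 265, 275 and 316 in shOGT cells, and MIR4435-2HG at 111, 133 and 132 under Scramble against 407, 427 and 469 under shOGT. These related genes, both on chromosome 2, each contain a copy of the miR-4435 gene, and 20.7% and 23.7% of their 75-base stretches recur in other genes, mostly in each other, so the division of reads between them is uncertain. Both were called higher, with log2 fold changes of 1.35 (SE 0.15) and 1.79 (SE 0.14). MIR503HG had 3.55, 7.21 and 11.04 in Scramble cells against 54.7, 43.9 and 52.4 in shOGT cells. DIO3OS had 15.96, 20.7 and 23.9 under Scramble against 86.3, 61.1 and 59.2 under shOGT. MIR3142HG, which also contains the miR-146a gene, had 24.8, 45.96 and 22.1 in Scramble cells against 51.6, 76.05 and 71.7 in shOGT cells. The call of MIR3142HG was lost without Scramble replicate 3, where the log2 fold change was 0.93. MIR210HG, whose microRNA is known as a marker of hypoxia, went the other way, with 79.8, 38.7 and 83.7 under Scramble against 15.8, 23.6 and 17.1 under shOGT and a log2 fold change of -1.73 (SE 0.35). NEAT1, which contains the MIR612 gene, was the second host called lower.

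**Figure D4:**
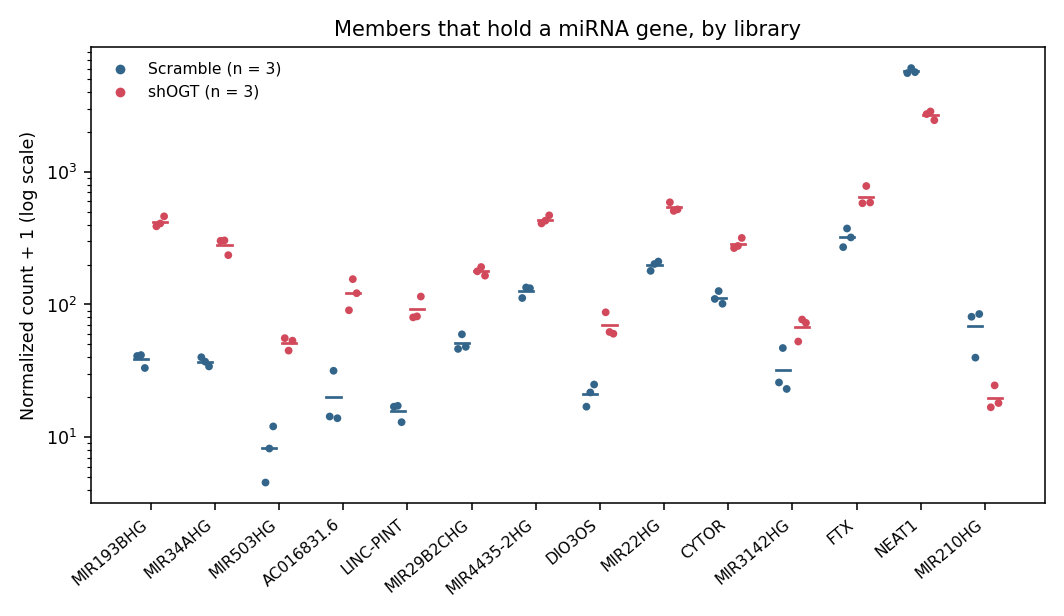
Normalized count plus 1 in each library (vertical axis, log scale) of the 14 members that contain a microRNA gene, ordered by log2 fold change, with points for 3 Scramble (blue) and 3 shOGT (red) libraries and a line at each group mean. The 12 hosts from MIR193BHG to FTX lie higher in shOGT, and NEAT1 and MIR210HG lie lower.

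The members with the steepest rise were nearly silent in the Scramble libraries. Each reached the expression threshold only through its shOGT values, so low Scramble values and a steep rise go together by the choice of members. LINC00161 had 0, 0 and 0.920 in Scramble cells against 41.05, 39.6 and 58.05 in shOGT cells, and AC090192.2 had 0.887, 0 and 0.920 under Scramble against 61.05, 66.4 and 36.4 under shOGT. In both, as in AC002401.4 below, no Scramble library held more than 3 reads, so a fold change is only a lower bound: against a floor of 3 reads per library, LINC00161 was at least 17.1-fold higher, AC090192.2 at least 20.2-fold and AC002401.4 at least 16.8-fold. The bounds cover counting error only. HRAT92 on chromosome 7 had 0.887, 6.31 and 1.84 in Scramble cells against 146, 102 and 88.8 in shOGT cells (log2 fold change 5.03, SE 0.47, limma adjusted p = 1.37e-07). GAU1 on chromosome 12 had 1.77, 5.41 and 0.920 under Scramble against 88.4, 72.8 and 76.3 under shOGT (log2 fold change 4.62, SE 0.45, limma adjusted p = 1.95e-07). Both genes had reads in every Scramble library, but few.

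AC002401.4 is a transcript of 583 bases in a single exon on chromosome 17 (50094065 to 50094647, plus strand) that ends 90 bases before the start of PDK2 on the same strand. PDK2 encodes a kinase that phosphorylates and inactivates pyruvate dehydrogenase. AC002401.4 had 0, 2.70 and 0.920 in Scramble cells against 55.8, 41.8 and 38.7 in shOGT cells. PDK2 had 363, 269 and 279 under Scramble against 19.999, 41.8 and 19.3 under shOGT, with a log2 fold change of -3.52 (SE 0.28), so the 2 transcripts moved in opposite directions. They share no exon base. The last 150 bases of AC002401.4, read from the GENCODE 29 transcript (GRCh38, chr17:50094498-50094647, plus strand), are shown because they carry the letters AATAAA, the usual signal for polyadenylation, 19 bases from the annotated end of the transcript.
AC002401.4 3′ end: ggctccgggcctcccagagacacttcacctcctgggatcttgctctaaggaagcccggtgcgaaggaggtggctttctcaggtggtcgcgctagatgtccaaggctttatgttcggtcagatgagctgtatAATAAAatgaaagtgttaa

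The members with the largest decreases included RNAs described in colorectal tumours. LINC01234 on chromosome 12 had 111, 122 and 119.6 in Scramble cells against 11.6, 19.3 and 11.4 in shOGT cells, and the shOGT mean was 11.99% of Scramble (log2 fold change -3.01, SE 0.29, limma adjusted p = 1.80e-07). CRNDE (colorectal neoplasia differentially expressed), on chromosome 16 (54845189 to 54929189, minus strand), had 224, 232 and 224 under Scramble against 36.8, 42.8 and 35.3 under shOGT, a fall to 16.9% of Scramble (log2 fold change -2.54, SE 0.19, limma adjusted p = 1.41e-08). Its nearest coding gene IRX5, a homeobox factor whose start lies 1673 bases away, fell as well (log2 fold change -1.77, SE 0.28). AL365181.2, a clone-named transcript on chromosome 1 with its start 386 bases from that of BCAN, had 675, 591 and 605 in Scramble cells against 136, 109 and 95.6 in shOGT cells and a log2 fold change of -2.46 (SE 0.15). AC015849.5 on chromosome 17 had 45.2, 44.2 and 56.1 under Scramble against 14.7, 3.21 and 10.2 under shOGT and a log2 fold change of -2.44 (SE 0.45). In each of these genes all shOGT values lay far below the lowest Scramble value. The list of 30 long noncoding RNAs described in colorectal cancer or with MYC had 8 genes in the table, 5 called higher and 3 lower. The members on it were UCA1, CYTOR and LINC00346, which rose, and CRNDE and LINC01234, which fell.

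BISPR, the BST2 interferon-stimulated positive regulator, fell together with its neighbour. BISPR lies on chromosome 19 (17405686 to 17419324, plus strand), and BST2, which encodes the interferon-induced protein tetherin, starts 38 bases away on the opposite strand. BISPR had 109.98, 99.1 and 100.3 in Scramble cells against 9.47, 8.57 and 31.9 in shOGT cells, with a log2 fold change of -2.81 (SE 0.41). BST2 had 1741, 1639 and 1653 under Scramble against 484, 395 and 377 under shOGT and a log2 fold change of -2.01 (SE 0.11). The coding gene MVB12A, which starts 36 bases from BISPR, was also lower (log2 fold change -1.60, SE 0.15), and 27.7% of the exon bases of BISPR are shared with other genes. The 250 bases before the RefSeq start of BST2 (GRCh38.p14, chr19:17405631-17405880, minus strand) are shown because the start of BISPR falls within them. Capitals mark 2 overlapping matches to the core of an interferon-stimulated response element, searched as GAAA and a second GAAA with any 2 bases between them, which begin 130 and 124 bases before the BST2 start and lie within annotated exon sequence of BISPR.
BST2 upstream region: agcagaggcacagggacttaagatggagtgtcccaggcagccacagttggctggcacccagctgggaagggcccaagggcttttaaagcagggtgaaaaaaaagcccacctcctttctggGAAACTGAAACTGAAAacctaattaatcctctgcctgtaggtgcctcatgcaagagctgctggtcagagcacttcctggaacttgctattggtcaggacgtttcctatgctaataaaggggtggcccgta

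Across the 49 members with a RefSeq promoter window (250 bases before to 50 after the start), 4 held the response element letters on either strand, all 4 of them among the 32 windows of higher members, or 8.16% against 3.57% of 34943 windows of the same length. Windows were matched by symbol, and of these 4 only that of PICART1 has its RefSeq start at the GENCODE start. The RefSeq starts of MIR34AHG, LINC00310 and LINC-PINT lie 16568, 22953 and 193720 bases from it. BISPR's own window held none. CACGTG, the E-box bound by MYC and related factors, was found in 4 of the 49 windows, 2 of higher and 2 of lower members, or 8.16% against 7.23% of all windows. TGATGNAA, the composite C/EBP and ATF element, was found in 3 (6.12% against 3.62%), CCGGAAG, an ETS site, in 3 (6.12% against 10.2%), and TATAAA in 6 (12.2% against 11.6%). TGACGTCA, the cyclic AMP response element, was in 0 of the 49 windows, against 1.84% of all. Both strands were searched for each motif, and a match describes letters only. For 27 of the 49 members, the RefSeq start around which the window is set lies within 100 bases of the GENCODE start.

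Long noncoding RNAs that share a start region with another gene mostly moved with it, as was the case over all genes of the table. Of the members, 56 have a gene on the opposite strand with its start within 1 kb, and for 14 of these the partner was in the table. In 13 of the 14 pairs (92.9%) both had the same direction, 9 upward and 4 downward. Over all genes of the table with such a partner, 284 of 348 (81.6%) had the same direction. In both counts a pair enters only if each gene passed the authors' restriction. The members' share, which rests on 14 pairs, was not tested against that background. With the nearest coding gene within 50 kb, 26 of 33 members had the same direction, or 78.8% against 75.7% (874 of 1154) over all genes of the table.

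OSER1-DT, which starts 169 bases from OSER1, a gene named for its response to oxidative stress, was the most abundant of these members. OSER1-DT had 106, 83.8 and 99.4 in Scramble cells against 512, 458 and 473 in shOGT cells, with a log2 fold change of 2.31 (SE 0.14). OSER1 had 997, 1082 and 1009 under Scramble against 3102, 2898 and 3001 under shOGT, with a log2 fold change of 1.54 (SE 0.08). The RefSeq promoter window of OSER1-DT (GRCh38.p14, chr20:44210836-44211135, plus strand) is shown because it held a CACGTG, in capitals, 118 bases before the RefSeq start. That start lies 126 bases downstream of the GENCODE start used for the distance to OSER1, so the motif falls just inside the GENCODE gene and not before it. The annotated OSER1 exons lie outside it.
OSER1-DT promoter: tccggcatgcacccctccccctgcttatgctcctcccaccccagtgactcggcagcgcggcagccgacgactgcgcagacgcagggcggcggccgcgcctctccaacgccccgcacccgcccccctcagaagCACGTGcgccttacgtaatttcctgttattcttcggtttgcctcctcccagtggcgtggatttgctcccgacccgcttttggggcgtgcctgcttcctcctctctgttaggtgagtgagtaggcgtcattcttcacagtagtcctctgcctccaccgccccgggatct

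HRAT92 rose with PDGFA, which encodes a chain of platelet-derived growth factor and starts 95 bases away. PDGFA had 112, 95.5 and 95.7 in Scramble cells against 615, 614 and 486 in shOGT cells and a log2 fold change of 2.48 (SE 0.14). GAU1 rose with GALNT8, a glycosyltransferase gene whose start lies 239 bases from its own, and GALNT8 was at 0.887, 0 and 0 under Scramble against 42.1, 35.3 and 29.6 under shOGT. Both partners were higher in every shOGT library than in any Scramble library. DIO3OS rose with DIO3, the thyroid hormone deiodinase gene (41.7, 35.1 and 27.6 in Scramble cells against 87.4, 73.9 and 78.5 in shOGT cells; log2 fold change 1.19, SE 0.25).

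The remaining upward pairs ranged in level. AC068282.1 had 119.7, 65.8 and 69.9 under Scramble against 221, 229 and 204 under shOGT, and its partner MAP3K2, a kinase gene of the MAP kinase cascades, had 1791, 2029 and 2007 in Scramble cells against 3696, 4399 and 3852 in shOGT cells. AP003392.4, with 20.4, 17.1 and 24.8 under Scramble against 50.5, 57.8 and 45.5 under shOGT, was paired with CCDC84, which had 259.9, 297 and 269.6 in Scramble cells against 734, 766 and 633 in shOGT cells. AC096733.2, with 19.5, 18.9 and 29.4 under Scramble against 39.997, 63.2 and 44.4 under shOGT, was paired with TBC1D9, which had 796, 773 and 713 in Scramble cells against 1910.4, 2050.01 and 2172 in shOGT cells. The log2 fold changes of these 3 members were 1.398 (SE 0.22), 1.27 (SE 0.30) and 1.09 (SE 0.32), and AC096733.2 lost its call without Scramble replicate 1 (0.9997), without Scramble replicate 2 (0.98) and without shOGT replicate 5 (0.90). HCG27, with 23.0% of its exon bases shared with other genes, had 36.4, 27.9 and 39.6 under Scramble against 73.7, 73.9 and 88.8 under shOGT (log2 fold change 1.17, SE 0.25). Its partner, the antisense transcript AL662844.4, had 17.7, 9.01 and 23.9 in Scramble cells against 65.3, 61.1 and 78.5 in shOGT cells. LINC02261 had 3.55, 9.91 and 4.60 under Scramble against 38.9, 46.1 and 40.98 under shOGT (log2 fold change 2.72, SE 0.40), and its partner AC024132.1, a lincRNA below the expression threshold, had 0, 0 and 0 in Scramble cells against 10.5, 4.28 and 7.97 in shOGT cells. All of these were higher in every shOGT library.

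Downward, besides BISPR, AC010735.2 had 75.4, 86.5 and 73.6 under Scramble against 36.8, 38.6 and 38.7 under shOGT and lies 387 bases from the start of IRS1, the insulin receptor substrate 1 gene, which had 4451, 4464 and 4267 in Scramble cells against 2127, 2119 and 2154 in shOGT cells. LINC01124 had 65.6, 39.6 and 44.2 under Scramble against 25.3, 24.6 and 15.9 under shOGT and its partner SP5, a transcription factor gene induced by Wnt signalling, had 435, 344 and 367 in Scramble cells against 92.6, 73.9 and 101 in shOGT cells. LINC02381 had 121, 111 and 121 under Scramble against 39.997, 56.8 and 59.2 under shOGT, and its partner FAM242C, itself a lincRNA with a low mean, had 19.5, 29.7 and 18.4 in Scramble cells against 2.11, 1.07 and 3.41 in shOGT cells. In each pair both transcripts were lower in every shOGT library. These 3 members had log2 fold changes of -1.02 (SE 0.23), -1.14 (SE 0.32) and -1.18 (SE 0.22), and none passed the call after rescaling, where the values were -0.32, -0.45 and -0.47. AC010735.2 also lost its call without Scramble replicate 2 (-0.95), and LINC01124 without Scramble replicate 1 (-0.93) and without shOGT replicate 6 (-0.94). The exception among the 14 pairs was AC016355.1, with 15.1, 12.6 and 13.8 under Scramble against 44.2, 36.4 and 18.2 under shOGT, which was higher, while MAP2K5, a MAP kinase kinase gene starting 105 bases away, was lower at 539, 518 and 531 in Scramble cells against 89.5, 111 and 97.9 in shOGT cells. AC016355.1 lost its call without shOGT replicate 4 (0.86) and without shOGT replicate 5 (0.99).

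**Figure D5:**
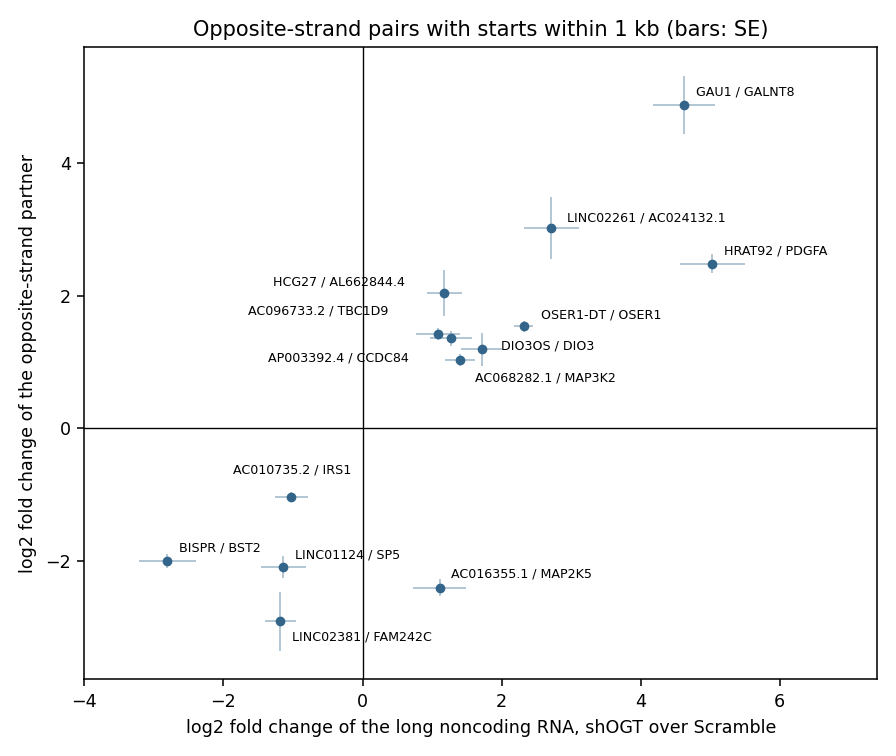
Log2 fold change (shOGT over Scramble) of 14 members (horizontal axis) and of the opposite-strand gene whose start lies within 1 kb (vertical axis), with bars for the standard error. The 13 pairs in the upper right and lower left moved in the same direction, and AC016355.1 with MAP2K5 did not.

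The clone-named members, which carry no functional name, held some of the largest values. AL161431.1 on chromosome 13 had 53.2, 85.6 and 86.5 under Scramble against 719, 747 and 799 under shOGT, a shOGT mean 10.05 times that of Scramble (log2 fold change 3.34, SE 0.18, limma adjusted p = 5.54e-10). AP000542.2 on chromosome 22 had 23.1, 36.04 and 43.2 in Scramble cells against 392, 509.8 and 509 in shOGT cells and a ratio of 13.8 (log2 fold change 3.78, SE 0.22). Both consist almost wholly of sequence found in no other annotated gene, with 2.93% and 0.31% of their 75-base stretches shared. AC020656.2 on chromosome 12 had 54.1, 115 and 117 under Scramble against 444, 538 and 464 under shOGT and a log2 fold change of 2.40 (SE 0.24). Its nearest coding start is that of LYZ, the lysozyme gene, 16459 bases away, which was also higher (log2 fold change 1.01, SE 0.08) and is among the leukocyte markers above. Some clone-named genes cannot be told apart from relatives: 76.0% of the stretches of AC092368.3 recur in RAB43 and its readthrough, and 72.3% of those of AL512625.1 recur mainly in GLIDR and its relatives. In all, 24 of the 169 members shared over 10% of their stretches with another gene.

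Few members belong to the other lists examined. Of the p53 and stress list (14 symbols), the members MIR34AHG, OSER1-DT and LINC-PINT were higher and NEAT1 lower. Of the interferon and inflammation list (12 symbols), BISPR was lower and MIR3142HG higher, and the antisense transcript LUCAT1, no member, was at 234% of Scramble. Of 9 imprinted or dosage-related RNAs, FTX was the only member, and KCNQ1OT1, an antisense RNA of the imprinted KCNQ1 domain, stood at 593% of Scramble. Of 10 RNAs linked to epithelial differentiation, LINC01559 was higher, with 36.4, 27.03 and 38.6 in Scramble cells against 98.9, 93.2 and 94.5 in shOGT cells (log2 fold change 1.48, SE 0.24), and LINC02381 was lower. AC078923.1, which holds a small nucleolar RNA gene in an intron, had 47.01, 67.6 and 52.5 under Scramble against 27.4, 22.5 and 30.7 under shOGT, with a log2 fold change of -1.02 (SE 0.28). Its call was lost after rescaling (-0.32), without Scramble replicate 2 (-0.87) and without shOGT replicate 5 (-0.90).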

How the data were processed

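RNA-seq was available for 3 Scramble and 3 shOGT libraries of HT-29 cells. The values deposited by the authors are a normalized signal, read counts divided by a size factor per library, and 100% of them gave back whole reads (tolerance 0.02). The authors' own log2 fold changes and p-values in the table were used only to check that it holds genes past a 2-fold change with an adjusted p-value under 0.05. Per the labels, cutadapt 1.9, HISAT2 2.0.4, UMI-tools, StringTie 1.3.4d, DESeq2 and edgeR were used, and the processing notes name the build mm8, a mouse build. The identifiers and positions of all 5681 genes match GENCODE 29 on GRCh38. The labels describe poly(A) selection with dUTP marking and molecular identifiers, whereas the study's methods name another strand-specific kit. Whether counting used strand is not given in the sources used here.

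limma 3.58.1 (trend method, R 4.3.3) was fitted to log2(value + 1) of the deposited signal comparing the groups, over the 5671 genes that reached 1 in 3 or more libraries, so fold changes of low genes are understated. Tests were checked on simulated data. The alternatives were edgeR 4.0.16 and DESeq2 1.42.0 run on whole reads, another scaling, pseudocount and filters, an ordinary linear model, and leaving out each library. Shared sequence was counted as stretches of 75 bases found in transcripts of other genes. Neighbours, hosts and exon overlaps come from GENCODE 29. RefSeq microRNAs matched all hosted microRNA genes but MIR612, and promoter windows matched 49 members.

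The members and lists were chosen with earlier results of these data known. Named members are the 10 most abundant, the 5 highest and 5 lowest log2 fold changes, small RNA hosts, list members, the 5 most abundant clone-named members, those with an opposite-strand partner and the 2 on each side of the expression threshold. AL135925.1, AC068580.2, AL117329.1, AC007785.1, AL390719.2, AC092368.3 and AL512625.1, and the neighbours PDK2, IRX5, MVB12A and LYZ, were named after their values were seen.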

Additional observations from a re-analysis of the deposited data

How the results depend on the processing

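Each of the 169 members kept its direction under all 14 refits, which the authors' restriction to changes of at least 2-fold made likely beforehand. The 48 lower calls were the count most open to processing. After rescaling by the median of ratios, 14 members were called lower, the median log2 fold change of the members was 2.09 and 4069 genes of the table were called in place of 5636. That scaling assumes that most genes of the table do not change, which a table restricted to changed genes does not meet, and the cause of the difference was not tested. Moving the expression threshold changed the counts because fewer or more genes were members: with a mean of at least 10, 192 were higher and 58 lower with a median of 1.71, and with a mean of at least 50, 57 were higher and 27 lower. Among members without a shared exon base, 85 were higher and 35 lower. Within 10 kb of the nearest coding start, 15 of 18 pairs had the same direction (83.3%), against 26 of 33 (78.8%) within 50 kb. Leaving out 1 library at a time gave 112 to 116 members higher, 42 to 47 lower, a median of 1.36 to 1.43, 5403 to 5543 called genes, and the same 13 and 26 pairs. edgeR and DESeq2 gave 119 to 120 higher and 49 lower members. No paired analysis was possible because the labels number the Scramble libraries 1 to 3 and the shOGT libraries 4 to 6, so the groups share no replicate number. With 3 libraries a group and few reads per member, values of low members carry wide counting error, and genes that share bases with others stay uncertain.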
